A study of Mus musculus with 9 samples.

Results

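Aldo-keto reductases are enzymes that use NADPH to reduce aldehydes and ketones to alcohols. The family was taken as 10 mouse genes, Akr1a4, Akr1b3, Akr1b7, Akr1b8, Akr1c12, Akr1c13, Akr1c14, Akr1c18, Akr1e1 and Akr7a5, and each gene was represented by every array probe that carried its name or a synonym. Of the 10 listed genes, 9 had a probe, among 16736 genes or unnamed features tested on the arrays. Akr1c13 had no probe of its own. The family was selected on the measured X-1 against control difference of Akr1c14, which was strongly negative, so its values in that comparison are given as a description, with no p-value.

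RNA was measured in 3T3-L1 cells on 9 one-colour arrays. 3T3-L1 is a line of mouse fibroblasts able to form adipocytes. The cells were preadipocytes grown in 10% fetal bovine serum and then kept without serum for 48 h. The 3 groups of 3 arrays were the untreated control, X-1 at 70 µM for 24 h and X-3 at 70 µM for 24 h. X-1 and X-3 are code names of derivatives of mangiferin, a plant xanthone glucoside. All of the cells came from 1 established line. The series text counts 9 independent experiments, and where replicates were not separate cultures the p-values measure only the spread between these arrays.

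The family acts at several points of metabolism. Aldose reductase turns glucose into sorbitol, other members clear reactive aldehydes and carbonyls, and the Akr1c enzymes interconvert active and inactive steroid hormones and can act on prostaglandins. In humans several members are classical targets of NRF2, the transcription factor of the oxidative stress response, and in adipose tissue the mouse enzyme Akr1b7 is known as a producer of prostaglandin F that restrains adipocyte formation.

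The 13 probes named for these genes are 60 bases long, and 11 of them passed the filter, which asked for 1 or more groups with all 3 arrays well above background. Those 11 covered all 9 genes. The probes below are shown because the compounds were told apart by Akr7a5 and Akr1c18 and because Akr1c12 and Akr1c13 share a probe. They are written 5′ to 3′, and capitals mark the longest run of bases that also occurs in a probe of another gene of the superfamily.
Akr7a5: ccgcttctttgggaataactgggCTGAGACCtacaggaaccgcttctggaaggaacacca
Akr1c18: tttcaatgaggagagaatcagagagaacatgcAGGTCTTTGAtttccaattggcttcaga
Akr1c12, shared with Akr1c13: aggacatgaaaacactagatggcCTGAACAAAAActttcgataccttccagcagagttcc
Akr1c12, its own probe: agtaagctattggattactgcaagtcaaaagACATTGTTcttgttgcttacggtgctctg
The longest shared run was 8 bases for the Akr7a5 probe, with Akr1e1, and 10 bases for the Akr1c18 probe, with Akr1b3. It was 11 bases for the first Akr1c12 probe, with Akr1a4, and 8 bases for the second, with Akr1c20. The first Akr1c12 probe is listed for transcripts of both Akr1c12 and Akr1c13, so its signal cannot be assigned to either gene. The second is not listed for both, but it was not compared with the Akr1c13 transcript, so its specificity was not tested. In the array design, which uses build mm9, the Akr7a5 probe covers chr4:138872907-138873502 and the Akr1c18 probe covers chr13:4134506-4135881. Both of these probes span more genome than their length and so cross a splice junction. The shared Akr1c12 probe lies at chr13:4267675-4269464 and also crosses one, and the second Akr1c12 probe lies at chr13:4272198-4272257. The Akr1c14 probe lies at chr13:4089196-4089255 and is contiguous.

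The 250 bases before the start of the 4 listed Akr1c genes are shown because Akr1c14, Akr1c18 and Akr1c12 gave different values on the arrays and because Akr1c13 shares a probe with Akr1c12. They come from RefSeq on build GRCm38.p6, and capitals mark a match to a motif searched, described after them. The windows are chr13:4059341-4059590 on the plus strand for Akr1c14, chr13:4150647-4150896 on the minus strand for Akr1c18, chr13:4279400-4279649 on the minus strand for Akr1c12 and chr13:4190937-4191186 on the plus strand for Akr1c13.
Akr1c14: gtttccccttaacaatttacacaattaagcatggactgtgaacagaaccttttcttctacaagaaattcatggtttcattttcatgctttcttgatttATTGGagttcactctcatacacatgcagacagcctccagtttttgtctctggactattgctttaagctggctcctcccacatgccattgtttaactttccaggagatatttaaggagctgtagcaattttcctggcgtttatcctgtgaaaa
Akr1c18: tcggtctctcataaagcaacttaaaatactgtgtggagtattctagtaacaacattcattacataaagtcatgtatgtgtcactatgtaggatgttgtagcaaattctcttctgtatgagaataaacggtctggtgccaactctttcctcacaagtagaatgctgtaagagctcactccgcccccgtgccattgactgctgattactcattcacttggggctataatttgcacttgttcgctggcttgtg
Akr1c12: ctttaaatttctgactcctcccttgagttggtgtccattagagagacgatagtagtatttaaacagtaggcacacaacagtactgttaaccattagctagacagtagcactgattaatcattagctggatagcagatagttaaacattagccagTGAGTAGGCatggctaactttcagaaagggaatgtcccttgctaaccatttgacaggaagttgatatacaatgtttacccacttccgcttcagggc
Akr1c13: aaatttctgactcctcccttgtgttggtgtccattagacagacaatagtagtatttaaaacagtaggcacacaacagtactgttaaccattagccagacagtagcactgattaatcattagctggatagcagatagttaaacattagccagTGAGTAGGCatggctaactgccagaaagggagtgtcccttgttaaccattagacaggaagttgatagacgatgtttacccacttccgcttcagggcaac
The search covered these bases and the 50 bases after each start, on both strands. RefSeq windows were found for 9 of the 10 listed genes. The short antioxidant response element, TGANNNNGC, occurred in 41.3% of the 32851 windows in the table and in 4 of the 9 family windows, those of Akr1b7, Akr1b8, Akr1c12 and Akr1c13. The longer form TGACNNNGC, every match of which is also a match to the short form, occurred in 12.4% of all windows and in 0 of the 9. The core of the hypoxia response element, ACGTG, occurred in 19.6% of all windows and in 1 of the 9, that of Akr1a4. The CCAAT box occurred in 37.4% of all windows and in 3 of the 9, those of Akr1b7, Akr1c14 and Akr1e1. In the Akr1c12 and Akr1c13 windows the short element began at −96 and −99 relative to the start, with the letters TGAGTAGGC in both. These 2 windows were identical at 284 of 304 aligned positions (93.4%), whereas the next most alike pair, Akr1c14 and Akr1c18, reached 55.6%.

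Each array value is a log2 intensity relative to the 75th percentile of that array, so 0 marks a probe as bright as that percentile, and levels are compared only within a probe. A gene with several probes is represented by its brightest. Between 57.9% and 67.1% of the gene spots of an array were well above background, and none was saturated. The replicates with the same number lay on 1 slide, and slide 1 was scanned on another day with an earlier software version. On every slide control, X-1 and X-3 held positions 1, 2 and 3, so an effect of position and one of treatment cannot be told apart. Markers of preadipocytes and fibroblasts were above background on all arrays for 11 of 11 genes. Of 8 adipocyte markers only Fabp4 was, and Cfd, Lep and Slc2a4 were above background on none. Adipoq, Plin1, Cidec and Retn were above background on some arrays and not on others.

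With X-3 against control, 5 of the 9 measured family genes were lower, 0 were higher and 4 were not called, at a Benjamini-Hochberg adjusted p below 0.05 in limma. Over all genes tested 55.7% were called, 29.3% higher and 26.4% lower, so the share of the family that was called was close to the background. The median difference of the family was −0.56 on the log2 scale, beside 0.06 over all genes. Over all genes the direction of the calls depended on the scaling, with 4903 higher and 4411 lower here, 3047 and 5006 after median scaling, and 1887 and 8014 after scaling to spike-in RNA in replicates 2 and 3. Those scalings moved the median of all genes to −0.17 and −0.62 with X-3 and to −0.16 and −0.78 with X-1, where they called 3106 higher and 5246 lower, and 1626 and 9348, beside 4719 and 4734 here. Under spike-in scaling limma gave every gene the same standard error (0.31), so the calls and adjusted p-values of that setting need care. It lowered the difference from control of every family gene, for example to −1.32 for Akr1b8, −1.35 for Akr1e1 and −0.94 for Akr1c12 with X-3, and to −1.29, −1.79 and −1.31 with X-1. With X-1 against control, 1 family gene was higher and 6 were lower at the same threshold, where 56.5% of all genes were called, 28.2% higher and 28.3% lower, and the family median was −0.56. Nothing is read from that second count, because X-1 chose the family. X-3 shares its control arrays with X-1, so the 2 sets of differences are not independent. In cultured cells measured in bulk, fewer cells that express a gene and less RNA per cell cannot be told apart.

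**Figure D1:**
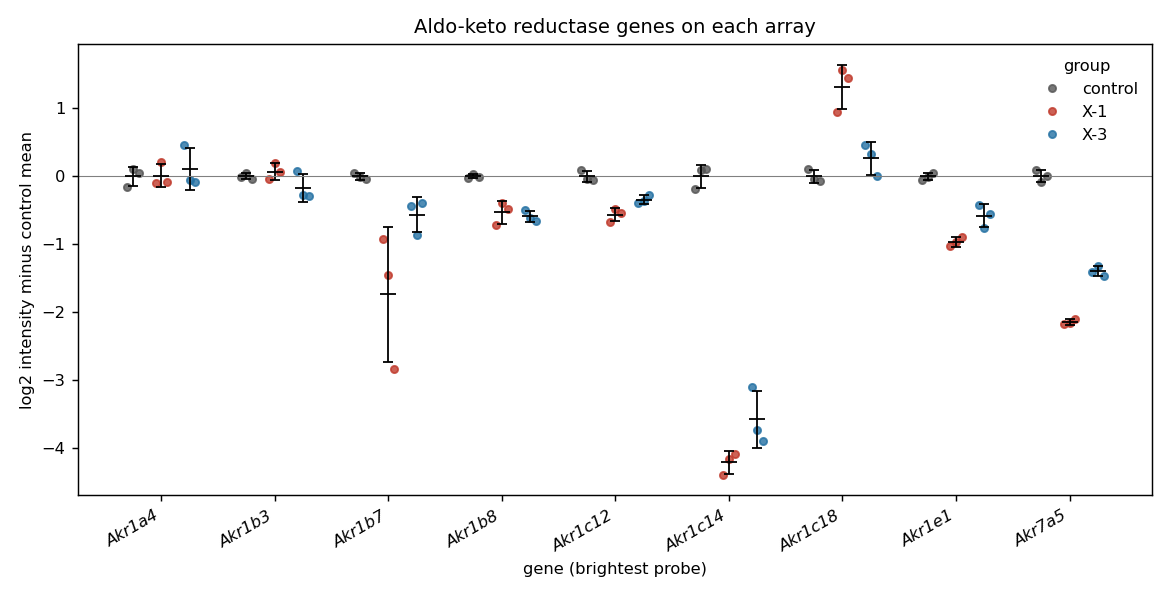
Normalized log2 intensity of each array minus the control mean (vertical axis) for the 9 measured family genes, at the brightest probe of each. Points are arrays, and black bars give the mean and SD of 3 arrays; Akr1c14 and Akr7a5 lie far below control with both compounds, Akr1c18 is above control with X-1, and Akr1b7 is scattered with X-1, where it was not well above background.

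Akr1c14, a hydroxysteroid dehydrogenase that reduces ketosteroids such as dihydrotestosterone, differed most from control. Its normalized log2 intensity was 2.24, 2.52 and 2.53 on control arrays 1, 2 and 3. It was −1.96, −1.73 and −1.65 with X-1, and −0.68, −1.30 and −1.46 with X-3. The 3 groups did not overlap, and the X-3 array of slide 1 was the highest treated array. With X-3 the gene fell by 3.58 ± 0.21 (SE, n = 3 per group) on the log2 scale, which is 11.9-fold (limma, adjusted p = 2.208e-06). On the 3 slides taken separately the X-3 difference was −2.91, −3.82 and −4.00. With X-1 the difference from control was −4.21 ± 0.21 (SE), or 18.5-fold, and it lay between −4.24 and −4.19 on every slide.

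Akr1c18, which inactivates progesterone and can also make prostaglandin F, was the family gene with a higher level after X-1. It read −3.75, −3.91 and −3.94 on the control arrays and −2.91, −2.31 and −2.41 on the X-1 arrays. With X-3 it read −3.40, −3.54 and −3.87, so 1 X-3 array fell within the control range while all X-1 arrays lay above it. The difference from control was 1.32 ± 0.19 (SE) with X-1, or 2.50-fold, and 0.80 with another background correction and 0.72 with spike-in scaling. With X-3 it was 0.26 ± 0.19 (SE), with a 95% interval of −0.16 to 0.69, and was not called (limma, adjusted p = 0.260). The X-3 value was 0.035 to 0.089 with median scaling, quantile normalization and another background correction, and its sign turned under spike-in scaling, to −0.46.

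Akr1c12, a hydroxysteroid dehydrogenase whose signal here may also come from its near copy Akr1c13, was modestly lower. At the shared probe it read −1.50, −1.64 and −1.65 in controls, −2.26, −2.07 and −2.14 with X-1 and −1.99, −1.96 and −1.86 with X-3, with no overlap between groups. The X-3 difference was −0.34 ± 0.11 (SE; limma, adjusted p = 0.0261). The call was lost after another background correction (adjusted p = 0.104), with no filter on dim probes (0.0750), and without control replicate 1, 2 or 3 or X-3 replicate 2 (0.0540 to 0.0762). The X-1 difference was −0.56 ± 0.11 (SE). The second Akr1c12 probe gave the same size of X-3 difference with a wider error, −0.34 ± 0.17 (SE), and was not called (limma over all probes, adjusted p = 0.130). On that probe the X-3 arrays read −4.25, −3.84 and −3.54, and the last of them lay at the control level of −3.57 to −3.49.

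Akr1e1, which reduces anhydrofructose, a product of glycogen breakdown, lies at the far end of the same stretch of chromosome 13. It read −1.56, −1.51 and −1.46 in controls, −2.54, −2.47 and −2.40 with X-1 and −1.94, −2.27 and −2.06 with X-3. Control was highest, X-3 intermediate and X-1 lowest, with no overlap. With X-3 it fell by 0.58 ± 0.12 (SE) on the log2 scale (limma, adjusted p = 0.00311), and with X-1 the difference was −0.96 ± 0.12 (SE). A second Akr1e1 probe was well above background on 1 of 9 arrays and was not tested.

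Along the cluster, the X-1 differences from control did not share a direction, with Akr1c18 higher and the other measured probes lower. With X-3 the called probes were all lower. Akr1c18, the only probe with a positive X-3 difference (0.26), was not called. Measured from the Akr1c14 probe, in mm9, the Akr1c18 probe lay 45.3 kb away, the Akr1c12 probes 178 and 183 kb away and the measured Akr1e1 probe 503 kb away. Akr1c19, a neighbouring gene outside the list, had probes 149 and 158 kb away. At its brighter probe the X-3 difference was −0.66 ± 0.30 (SE) and was not called (limma, adjusted p = 0.0887). The other probe was above background on 3 of 3 control arrays, 0 of 3 X-1 arrays and 1 of 3 X-3 arrays. Its measured X-3 difference was −1.07 ± 0.23 (SE) and was called (limma over all probes, adjusted p = 0.00447). The size of that fall is uncertain, because most of its X-3 readings were not well above background. The probes of Akr1c6, Akr1c20 and Akr1c21, 367 to 494 kb away, were too dim to test.

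**Figure D2:**
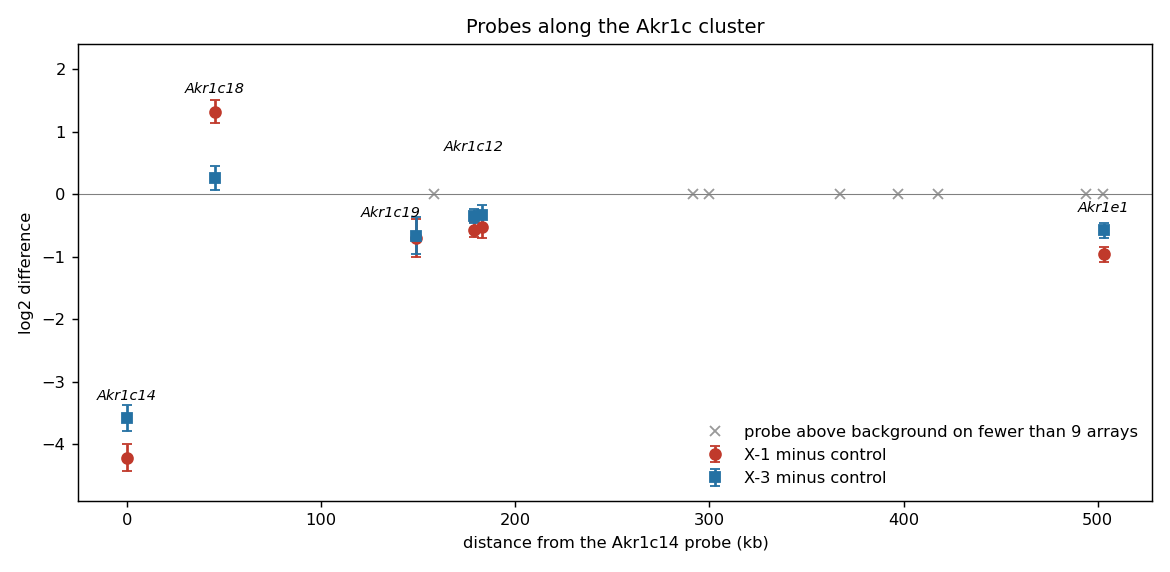
Log2 difference from control (vertical axis, mean with SE, 3 arrays per group) for each probe in the chromosome 13 cluster against its distance in kb from the Akr1c14 probe. Crosses at 0 are positions of probes that were above background on fewer than 9 arrays and have no value drawn; Akr1c14 stands at −4.21 and −3.58, while Akr1c18, 45.3 kb away, stands at 1.32 and 0.26.

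Akr7a5, an aldehyde reductase that acts on succinic semialdehyde and on the dialdehyde of aflatoxin, had the next largest fall with X-3. It read 1.13, 0.95 and 1.04 in controls, −1.13, −1.12 and −1.06 with X-1 and −0.36, −0.27 and −0.42 with X-3. All 3 groups were separate, and the spread within each was 0.09 or less (SD). With X-3 it fell by 1.39 ± 0.11 (SE) on the log2 scale, 2.63-fold (limma, adjusted p = 8.826e-06). The X-1 difference was −2.14 ± 0.11 (SE), or 4.42-fold.

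The aldose reductase branch lies on chromosome 6. Akr1b8, an aldose reductase-like enzyme known as a growth factor-induced gene in fibroblasts, read 5.52, 5.58 and 5.54 in controls, 4.83, 5.15 and 5.06 with X-1 and 5.05, 4.94 and 4.88 with X-3. Every treated array lay below every control array, and the X-1 and X-3 arrays overlapped. With X-3 it fell by 0.59 ± 0.12 (SE) on the log2 scale (limma, adjusted p = 0.00286), and with X-1 the difference was −0.53 ± 0.12 (SE).

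Akr1b7 was measured above background in control and X-3 cells and not in X-1 cells. It read −4.64, −4.70 and −4.74 in controls, above background on 3 of 3 arrays, and −5.13, −5.56 and −5.09 with X-3, also on 3 of 3. The X-1 readings were −5.61, −6.15 and −7.53 and were not well above background on any array. Set against the lowest signal that was well above background on those arrays, the X-1 level was at least 1.97-fold lower than control. The measured X-1 difference was −1.74, and it was −1.19 without X-1 replicate 3 and −0.46 with another background correction. The last of these is smaller than that bound. With X-3 the difference was −0.56 ± 0.41 (SE) and was not called (limma, adjusted p = 0.269), although the X-3 and control arrays did not overlap. The error comes from all groups together, and without X-1 replicate 3, the lowest reading, the X-3 fall was called (adjusted p = 0.0348). It was also called with spike-in scaling, at −1.28 (adjusted p = 9.8e-05), and was −0.33 with another background correction (adjusted p = 0.214).

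Akr1b3, the mouse aldose reductase that starts the polyol pathway, was not called with X-3. Its brightest probe read 5.62, 5.68 and 5.58 in controls, 5.58, 5.82 and 5.69 with X-1 and 5.70, 5.35 and 5.33 with X-3. X-3 replicates 2 and 3 lay below all controls and X-3 replicate 1 above them. The X-3 difference was −0.17 ± 0.13 (SE; limma, adjusted p = 0.321). It became a call at −0.29 without X-3 replicate 1 (adjusted p = 0.0499), at −0.25 after quantile normalization (0.0489), at −0.29 in replicates 2 and 3 alone (0.0318) and at −0.96 with spike-in scaling (0.0038). The other measured Akr1b3 probe had the opposite sign, 0.14 (limma over all probes, adjusted p = 0.359). A further probe with this name, placed by the design on chromosome 1, was above background on 0 of 9 arrays. With X-1 the brightest probe differed by 0.07 ± 0.13 (SE), a sign that turned to −0.15 with median, −0.14 with quantile and −0.71 with spike-in scaling.

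Akr1a4, the aldehyde reductase now named Akr1a1, which in mice makes the gulonate used for vitamin C synthesis, was not called with X-3. It read 5.52, 5.79 and 5.74 in controls, 5.59, 5.90 and 5.60 with X-1 and 6.15, 5.63 and 5.60 with X-3. The groups overlapped, and X-3 replicate 1 was the highest of the 9 arrays. The difference was 0.11 ± 0.18 (SE) with X-3 (limma, adjusted p = 0.620) and 0.01 ± 0.18 (SE) with X-1. The X-3 value had the other sign without X-3 replicate 1 (−0.067) and after median (−0.12) and quantile scaling (−0.0063). With spike-in scaling it was called in the opposite direction, at −0.82 (adjusted p = 0.0140). The X-1 value also had the other sign after these scalings (−0.21, −0.19 and −0.86).

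The compounds had the same dose and time and were compared directly, as 1 pair for each gene with p-values adjusted over all genes. This comparison reuses the X-1 arrays that chose the family. Of the 9 genes, 1 was higher with X-3 than with X-1, 1 was lower and 7 were not called, where 10.9% of all genes were called, 7.19% higher and 3.67% lower. Over all genes 1204 were higher and 615 lower, and with spike-in scaling 1320 and 265. The number of all genes called ranged from 627 to 3398 when 1 array was left out, without X-1 replicate 2 and without X-3 replicate 1. It was also moved by more than 1.5 times by leaving out control replicate 3 (1100), X-1 replicate 3 (650), X-3 replicate 2 (761) or X-3 replicate 3 (784).

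Akr7a5 was higher with X-3 than with X-1 by 0.75 on the log2 scale (95% interval 0.51 to 0.99; limma, adjusted p = 0.00606), and by 0.77, 0.85 and 0.63 on slides 1, 2 and 3. Akr1c18 was lower with X-3 by 1.06 (interval of the difference −1.48 to −0.63; limma, adjusted p = 0.0113). On slides 1, 2 and 3 its difference was −0.49, −1.24 and −1.45. The call for Akr1c18 was lost with another background correction, where the difference was −0.71 (adjusted p = 0.0534).

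For Akr1c14 the direct difference was 0.63 with a 95% interval of 0.16 to 1.11, and it was not called (limma, adjusted p = 0.0866). On slides 1, 2 and 3 it was 1.29, 0.42 and 0.19. Without X-3 replicate 1 it was 0.40 and not called (adjusted p = 0.0885). In replicates 2 and 3 alone, a setting chosen after seeing the data, it was 0.31 and was called (adjusted p = 0.0472). The X-3 and X-1 arrays of this gene did not overlap.

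Akr1e1 had a difference of 0.38 (95% interval 0.11 to 0.66; limma, adjusted p = 0.0763) with no overlap between arrays. Akr1c12 had 0.22 at the probe shared with Akr1c13 (interval −0.03 to 0.47; adjusted p = 0.232), also with no overlap. At the second Akr1c12 probe the arrays overlapped, and the difference was 0.19 (limma over all probes, adjusted p = 0.530). On slide 1 the difference at that second probe was −0.14. Akr1b7 was at least 1.34-fold higher with X-3, against the background limit of the X-1 arrays, and was not called (limma, adjusted p = 0.103). It was called without X-1 replicate 1 (adjusted p = 0.0408), in replicates 2 and 3 alone (0.0412) and with spike-in scaling. The measured difference of 1.17 was 0.62 without X-1 replicate 3 and 0.13 with another background correction (adjusted p = 0.802), which is below the bound.

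For the remaining genes the arrays of the compounds overlapped. The interval of the difference was −0.54 to 0.07 for Akr1b3 (−0.24; limma, adjusted p = 0.296), and this gene was called at −0.42 in replicates 2 and 3 alone (adjusted p = 0.0188). That setting was chosen after seeing the data and called 6461 of all genes, beside 1819 in the main fit. The other measured Akr1b3 probe had the opposite sign, 0.08 (limma over all probes, adjusted p = 0.713). The interval was −0.33 to 0.21 for Akr1b8 (−0.06; adjusted p = 0.802). It was −0.30 to 0.50 for Akr1a4 (0.10; adjusted p = 0.770). These intervals leave room for differences in either direction.

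**Figure D3:**
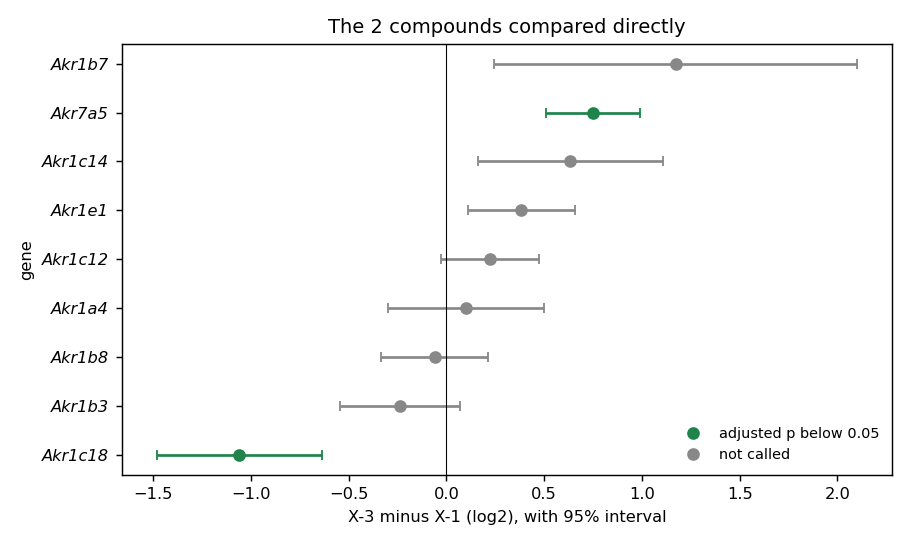
Difference between the compounds at the same dose and time, X-3 minus X-1, on the log2 scale (horizontal axis) with its 95% interval for each family gene, 3 arrays per group. Green marks an adjusted p below 0.05; Akr7a5 at 0.75 and Akr1c18 at −1.06 lie on opposite sides of 0, and the Akr1b7 value is drawn as measured although its X-1 readings were not well above background.

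Genes with the profile most like that of Akr1c14 were found by centring every gene on its mean over the 9 arrays and taking the root mean square difference from Akr1c14 in log2 units. The nearest was Gamt, an enzyme of creatine synthesis, at 0.158, with −4.05 for X-1 and −3.55 for X-3 against control. The next were Mrvi1 at 0.181, Tinag at 0.213, Entpd2, an ectonucleotidase, at 0.233 and Kera, the proteoglycan keratocan, at 0.242. In these 5 genes the X-1 difference ranged from −4.46 to −3.94 and the X-3 difference from −3.86 to −3.16, and each was above background on all 9 arrays. Akr1c14 chose them, so this likeness is a description.

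Other genes of the superfamily, outside the list, were measured for 5 of the 10 that had a probe. With X-3, 1 was higher, 2 were lower and 2 were not called, where 55.7% of all genes were called. Kcnab2, a potassium channel beta subunit with the aldo-keto reductase fold, rose by 1.44 ± 0.14 (SE) with X-3 (limma, adjusted p = 4.125e-05) and differed by 1.36 with X-1. With spike-in scaling the X-3 value was 0.65 and was not called (adjusted p = 0.0551). Kcnab1, its paralog, fell by 0.98 ± 0.18 (SE) with X-3 (adjusted p = 0.00176), a call lost after another background correction (adjusted p = 0.196). With X-1 it was not well above background on any array, at least 2.05-fold below control. The measured X-1 difference was −1.23. It was −0.46 with another background correction (limma, adjusted p = 0.150), which is smaller than that bound. Akr1b10, which the files list under an older clone name, fell by 0.46 ± 0.14 (SE) with X-3 (limma, adjusted p = 0.0183). Between X-3 and X-1 limma called 0 of the 5, where it called 10.9% of all genes.

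Genes that share substrates or control with the family were counted in lists. Over all genes 55.7% were called with X-3, 29.3% higher and 26.4% lower. With X-1 56.5% were called, 28.2% higher and 28.3% lower. The median difference over all genes was 0.06 with each compound. As given above, the balance of higher and lower calls over all genes depended on the scaling. Among 26 other carbonyl and quinone reductases, 12 were lower and 5 higher with X-3, and 12 and 6 with X-1. Adh1, an alcohol dehydrogenase that also oxidizes retinol, fell by 1.93 ± 0.15 (SE) with X-3 (limma, adjusted p = 8.851e-06) and differed by −2.75 with X-1. Rdh10, a retinol dehydrogenase, rose by 1.20 ± 0.21 (SE) with X-3 (adjusted p = 0.00121) and differed by 1.81 with X-1. The Rdh10 call with X-3 was lost when all of its probes were averaged (0.30, adjusted p = 0.0939) and with spike-in scaling (0.32, adjusted p = 0.364).

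Of 14 aldehyde dehydrogenases, which oxidize the aldehydes that the family reduces, 7 were lower and 2 higher with X-3, and 8 and 2 with X-1. Their median difference was −0.66 with X-3. Aldh6a1, a mitochondrial enzyme of valine and pyrimidine breakdown, fell by 2.37 ± 0.22 (SE) with X-3 (limma, adjusted p = 2.488e-05) and differed by −3.05 with X-1. Aldh8a1 rose by 0.62 ± 0.14 (SE) with X-3 (adjusted p = 0.00408), a call lost with median scaling (0.40, adjusted p = 0.0740), spike-in scaling (0.0073, adjusted p = 0.985) and another background correction (0.27, adjusted p = 0.257). Aldh1a7 differed by 0.89 with X-1, and by 0.0061 with spike-in scaling.

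Of 12 genes of polyol, fructose and glyoxal handling, 6 were lower and 1 higher with X-3, and 8 and 2 with X-1. The gene that rose with X-3, Pfkfb3, makes the fructose bisphosphate that activates glycolysis and rose by 2.92 ± 0.11 (SE; limma, adjusted p = 3.145e-07), beside 3.18 with X-1. Slc6a6, the taurine transporter, fell by 1.67 ± 0.26 (SE) with X-3 (limma, adjusted p = 0.000636). Khk, which phosphorylates fructose, differed by −1.65 with X-1.

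Of 13 genes of steroid reduction, 7 were lower and 3 higher with X-3, and 6 and 3 with X-1. Hsd17b1, which makes estradiol from estrone, fell by 1.85 ± 0.16 (SE) with X-3 (limma, adjusted p = 2.059e-05) and differed by −1.58 with X-1. Sts, steroid sulfatase, rose by 2.09 ± 0.18 (SE) with X-3 (adjusted p = 1.63e-05). Hsd17b7, which also acts in cholesterol synthesis, differed by 2.05 ± 0.49 (SE) with X-1.

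Of 16 genes of prostaglandin handling, 4 were lower and 4 higher with X-3, and 4 and 6 with X-1. Ptgs2, the inducible cyclooxygenase, rose by 4.03 ± 0.14 (SE) with X-3 (limma, adjusted p = 3.145e-07) and differed by 5.63 with X-1. Prxl2b, a prostaglandin F synthase outside the family, fell by 2.15 ± 0.16 (SE) with X-3 (adjusted p = 7.372e-06) and differed by −3.20 with X-1.

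Among 33 NRF2 targets and regulators, 16 were higher and 4 lower with X-3, and 21 and 1 with X-1. The median difference of the list was 0.77 with X-3 and 1.28 with X-1. Gsta2, a glutathione S-transferase that was not well above background in controls, was at least 11.8-fold higher with X-3 (limma, adjusted p = 7.102e-07) and at least 21.4-fold higher with X-1. Taldo1, of the pentose phosphate pathway, fell by 0.95 ± 0.17 (SE) with X-3 (adjusted p = 0.00121), and Tkt, of the same pathway, differed by −1.20 ± 0.38 (SE) with X-1. Tkt is the lower gene in the X-1 count, and it was no longer called in replicates 2 and 3 alone (−0.82, adjusted p = 0.136), with no filter on dim probes (0.0506), or without control replicate 1 or 3 or X-1 replicate 1 or 2 (0.0692 to 0.0882). Between X-3 and X-1, 11 of the 33 were lower and 0 higher, where 3.67% of all genes were lower. Higher and lower calls there were 2 and 4 for carbonyl and quinone reductases and 0 and 1 for aldehyde dehydrogenases. They were 3 and 2 for polyol handling, 3 and 0 for steroid reduction and 2 and 2 for prostaglandin handling. Over all lists together 10 genes were higher and 19 lower. The number called over all lists fell to 11 with median scaling and 12 with spike-in scaling.

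**Figure D4:**
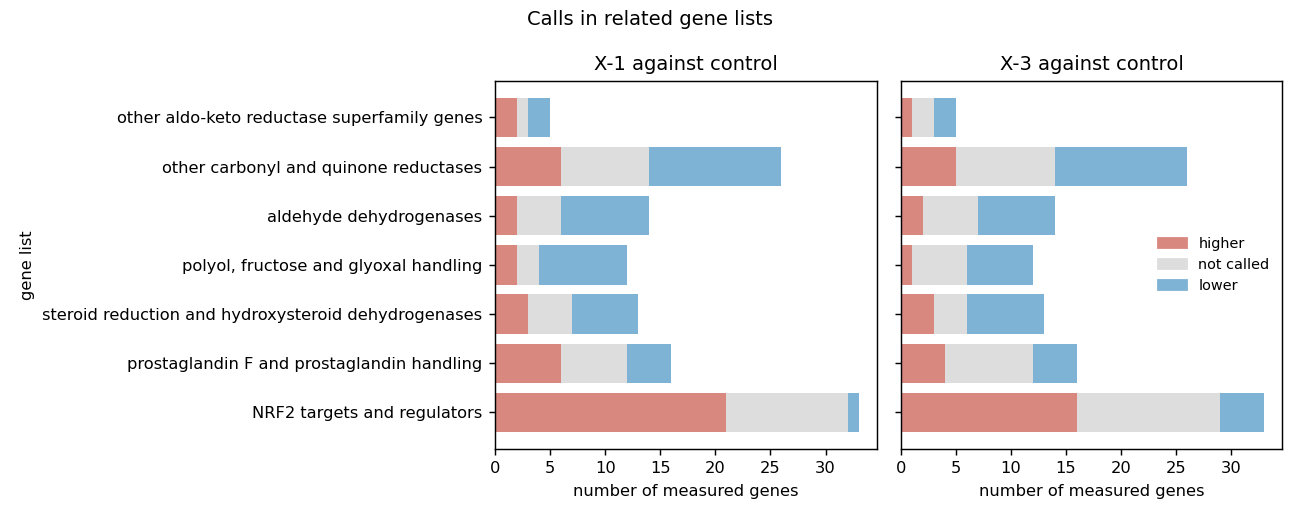
Number of measured genes (horizontal axis) that were higher, not called or lower than control in 7 gene lists, for X-1 (left) and X-3 (right), 3 arrays per group, limma adjusted p below 0.05. Higher calls outnumber lower ones among the 33 NRF2 genes (16 and 4 with X-3). Lower calls outnumber higher ones among the 26 other carbonyl and quinone reductases (12 and 5 with X-3). Over all genes the balance of higher and lower calls depended on the scaling.

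Markers of other cell types moved with treatment in part. The summed level of 5 macrophage markers, on a linear scale where 1 is the 75th percentile of the array, was 1.502 to 1.84 in controls, 2.67 to 3.21 with X-1 and 3.29 to 3.67 with X-3. Cd68, Csf1r and Cd14 were above background on all arrays, and Adgre1, a defining macrophage gene, on none. The sum of 5 epithelial markers was 0.106 to 0.121 in controls, 0.312 to 0.363 with X-1 and 0.437 to 0.513 with X-3. Krt8 was above background on all arrays, Krt18 and Krt19 on some, and Epcam and Cdh1 on none. The sum of 8 adipocyte markers was 0.426 to 0.591 in controls, 0.121 to 0.149 with X-1 and 0.164 to 0.187 with X-3. Of 4 endothelial markers only Tek was above background on all arrays, with sums of 0.0453 to 0.0596 in controls, 0.0449 to 0.0461 with X-1 and 0.0452 to 0.0468 with X-3. Of 6 liver and steroid cell markers, Star and Cyp17a1 were above background on all arrays and Alb, Ttr, Apoa1 and Cyp11a1 on none, and the sums were 0.383 to 0.433, 0.501 to 0.671 and 0.498 to 0.940 in the same order. The part of these sums in the values of the family was not tested.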

How the data were processed

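Total RNA was hybridized to 9 one-colour arrays, with groups taken from the labels. The authors deposited scanner output with an intensity for every spot, which, per the file headers, Agilent Feature Extraction had corrected for background (versions 10.5.1.1 for replicate 1 and 10.7.3.1 for replicates 2 and 3; the submitters' processing notes name 9.1). The deposited table of scores, whose columns had a median of −0.12 and followed log2 intensity at r of 0.998 or more, was used as an alternative; its scale is not stated. The members and lists were chosen with earlier results of these data known.

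Of 41174 gene probes, 214 were left out as outlier spots, and 25288 were kept because all 3 arrays of 1 or more groups were well above background. Log2 intensity minus the 75th percentile of each array was fitted with limma 3.58.1 in R 4.3.3, two-sided, with group as the only term over 9 arrays. P-values were adjusted by Benjamini-Hochberg over 16736 genes at a threshold of 0.05. The fit was also run on simulated data with independent noise, no slide effect and few genes changed. That simulation therefore does not show how the fit behaves with the shared slides and many changed genes of these data. Standard errors use 1 estimate of the spread per gene, shared by the 3 groups and moderated by limma across genes. The 3 arrays per group limit the precision. Names of probes came from RefSeq by accession (24990), symbol (6290) or synonym (1625), and 8055 kept the file's name. The genes named were all members, the called gene with the largest rise and fall in each list, and the 5 genes nearest Akr1c14; Akr1b10 and Akr1c19 were added after their values were seen. A dim group's fold was set against the lowest signal well above background on each array.

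Same-numbered arrays share a slide. Their deviations correlated at 0.517, 0.318 and 0.271 for X-1 and control, and at 0.238, 0.112 and 0.230 for X-3 and control. Between the compounds the coefficients on slides 1, 2 and 3 came to −0.041, −0.182 and 0.156. Arrays of a slide therefore varied together in the control comparisons, but the main fit had no slide term. The errors, intervals and adjusted p-values of that fit are unpaired, and the slide entered only as an alternative. The alternatives were a slide block, other scalings, background correction with normexp (offset 50) on median signals because mean signals were not in all files, other probe rules, and leaving out each array.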

Additional observations from a re-analysis of the deposited data

How the results depend on the processing

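The calls of Akr1c14, Akr7a5, Akr1b8 and Akr1e1 in X-3 against control and of Akr7a5 in X-3 against X-1 kept their direction and stayed past the threshold under every alternative run. The number of family genes called in X-3 against control was 5, and 8 with spike-in scaling of replicates 2 and 3; leaving out 1 array gave 4 to 6. Of all 16736 genes, 9314 were called there, and 9901 with spike-in scaling, 8014 of them lower. Leaving out 1 array gave 8029 to 10523 of all genes. In X-3 against X-1 the number of family genes called was 2, and 5 in replicates 2 and 3 alone (a setting chosen after seeing the data), 1 with normexp and 2 to 3 when 1 array was left out. Of all genes, 1819 were called in X-3 against X-1, and 494 with median scaling, 6461 in replicates 2 and 3 alone, 1045 with normexp, 577 with no filter on dim probes and 627 to 3398 when 1 array was left out. Of the genes in the lists 29 were called there, and 11 with median scaling, 12 with spike-in scaling, 64 in replicates 2 and 3 alone, 12 with no filter and 13 to 40 when 1 array was left out.

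Some signs turned. Akr1a4 in X-3 against control was −0.12 with median, −0.0063 with quantile and −0.82 with spike-in scaling (called, adjusted p = 0.0140), −0.15 in replicates 2 and 3 alone and −0.0033 score units in the deposited table, and −0.067 to 0.20 when 1 array was left out (lowest without X-3 replicate 1). In X-3 against X-1 it was −0.13 in replicates 2 and 3 alone and −0.078 to 0.20 when 1 array was left out, the lowest again without X-3 replicate 1. Akr1b8 in X-3 against X-1 was 0.044 with quantile normalization, 0.013 in deposited scores and 0.010 without X-1 replicate 2. Akr1c18 in X-3 against control was −0.46 with spike-in scaling. The cause was not tested for any of these. With the slide as a replicate block, 9819 genes were called in X-3 against control, 10002 in X-1 against control and 1800 in X-3 against X-1, and no call of a family gene changed. Signal near background limits Akr1b7, and 3 arrays a group limit every interval.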
